A study of Mus musculus with 6 samples.

Results

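The subunits of the mitochondrial respiratory chain and of ATP synthase that nuclear genes encode were followed in RNA sequencing of 4T1, a metastatic carcinoma line from the mouse mammary gland. Members were chosen by symbol: names that begin with Nduf and a subunit letter and number, with Uqcr, with Cox and a digit of 4 to 8, or with Atp5, and whose FPKM averaged at least 1 across all 6 libraries. FPKM is the number of fragments per length of transcript and per mapped fragments of the library, so it allows levels to be set beside each other between genes. Of 80 symbols that match, 72 passed, out of 24346 symbols in all and 11079 with such a mean. By symbol they comprise 36 members of complex I, 8 of complex III, 11 of complex IV and 17 named for ATP synthase, which is complex V. The libraries form 3 groups of 2. Cells named shRNA1 and shRNA3 each carried another short hairpin RNA against the long noncoding RNA AU021063, and the WT cells were mock transfected. A control with a non-targeting hairpin is not among the groups. Whether libraries of the same group were grown as separate cultures, or stem from clones, is not stated, so a p-value here reflects only how the libraries spread, and that spread may be technical.

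The respiratory chain passes electrons from NADH through complex I and complex III to oxygen at complex IV, and pumps protons across the inner mitochondrial membrane while doing so. ATP synthase lets the protons back and makes ATP. Most subunits come from nuclear genes and are imported, while a small set is encoded in mitochondrial DNA; the complexes are built with fixed ratios of subunits, with help from assembly factors. The 13 mitochondrially encoded subunits are not analysed here. Carcinoma cells often combine active glycolysis with working oxidative phosphorylation, and 4T1 cells are known to use both.

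Library sums lay between 582444 and 604022 FPKM in the 4 knockdown libraries and were 560862 and 568005 FPKM in the WT libraries, with 10998 to 11106 symbols at 1 FPKM or more in each of the 6. The absolute depth is unknown, because the deposited values are not counts. AU021063 was at 1.04 and 0.572 FPKM in shRNA1 cells, at 0.785 and 0 FPKM in shRNA3 cells and at 1.82 and 1.67 FPKM in WT cells. Its mean over all libraries lay under 1 FPKM, so it was not among the genes tested. Its lower level in the knockdown libraries rests on these low values alone. Of 8 carcinoma epithelium markers 6 had a mean of at least 1 FPKM, among them Krt8 and Krt18, which made up most of the sum. The sum was 1092 and 1022 FPKM in shRNA1 cells, 739.9 and 736 FPKM in shRNA3 cells and 932 and 965 FPKM in WT cells. Epcam was higher in every knockdown library, with 5.1 and 3.77 FPKM in shRNA1, 3.04 and 3.51 in shRNA3 and 2.18 and 2.04 in WT cells. Cldn4 was lower in every one, with 2.17 and 1.19 FPKM in shRNA1, 2.46 and 2.18 in shRNA3 and 2.83 and 2.82 in WT cells. Krt8, Krt18 and Krt7 were above WT in shRNA1 cells and below WT in shRNA3 cells, and Cdh1 overlapped with WT. Of 6 leukocyte markers only Cd68 had a mean of at least 1 FPKM, with Ptprc and Itgam at 0, and the sum was 18.5 and 16.0 FPKM in shRNA1 cells, 28.1 and 27.7 FPKM in shRNA3 cells and 6.73 and 6.76 FPKM in WT cells. Of 6 fibroblast markers 4 had such a mean, with sums of 96.8 to 108 FPKM in knockdown and 80.5 to 81.8 FPKM in WT cells. These 4 did not move together. Dcn rose, with 34.8 and 37.0 FPKM in shRNA1, 46.1 and 44.4 in shRNA3 and 10.96 and 10.4 in WT cells. Pdgfra fell, with 41.9 and 41.8 FPKM in shRNA1, 37.9 and 39.7 in shRNA3 and 49.96 and 49.7 in WT cells. Col1a1 was scarce but higher in every knockdown library. Pdgfrb was below WT in shRNA1 cells and overlapped with WT in shRNA3 cells. No endothelium, muscle or red cell marker reached 1 FPKM on average. The part of these shifts in the results was not tested, and in bulk RNA fewer cells of a kind and less RNA per cell cannot be told apart.

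As a group the members moved little and in both directions. With both hairpins against WT 23 members were higher and 10 lower, or 45.8% of the 72, against 50.0% of all 11079 genes tested (limma, two-sided, Benjamini-Hochberg adjusted p under 0.05 over all genes); 24.1% of all genes were higher and 25.9% lower. The median log2 change was 0.04 for the members and -0.01 for all genes, on the log2(FPKM + 1) scale used for all changes below. The members' count was thus near the background. Where each library was rescaled to the same total the split was 11 higher and 21 lower, and after quantile normalization it was 14 and 16, so the balance of directions rested on the scaling. Under every scaling 10 members were higher, among them Atp5c1, Atp5d, Atp5s, Cox6b1, Cox6c, Ndufa3, Ndufv3, Uqcrfs1 and Uqcrh, and 10 lower (Atp5k, Atp5l, Ndufa12, Ndufa4, Ndufa5, Ndufa9, Ndufs5, Ndufs6, Ndufs8 and Uqcrq). The share of all genes that kept a call under every scaling, or with each library left out, is not given here. Neither this count nor the one with libraries left out below therefore sets the members apart from other genes. All 4 knockdown libraries lay above both WT libraries in 20 members and below them in 8, against 22.2% and 25.5% of all genes, or 47.7% in either direction. Without WT replicate 1 the count of higher members was 11, and without WT replicate 2 it was 15. With each library left out in turn 9 members stayed higher, among them Ndufv3, Ndufa3, Uqcrh, Uqcrfs1, Cox6c, Atp5c1, Atp5d and Atp5s, and 4 stayed lower, which are Atp5k, Ndufa5, Ndufs8 and Uqcrq. The other members called over both hairpins each lost the call without at least 1 library.

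Each hairpin alone gave its own pattern. With shRNA1 18 members were higher and 4 lower than in WT cells, 30.6% of the members against 36.0% of all genes (17.6% of all genes higher and 18.4% lower). Same-total scaling gave 12 and 9, and quantile normalization 12 and 8. The count higher was 10 without WT replicate 1 or without shRNA1 replicate 1, and the count lower was 2 without either shRNA1 library. With shRNA3 23 were higher and 17 lower, 55.6% of the members against 55.2% of all genes (27.4% of all genes higher and 27.8% lower); same-total scaling gave 16 and 27, and quantile normalization 16 and 26. The count higher was 15 without WT replicate 1 and 13 without shRNA3 replicate 1, and the count lower was 11 without WT replicate 2 and 9 without shRNA3 replicate 2. Both hairpins are compared with the same WT libraries. Called in the same direction with each hairpin were 9 members higher and 2 lower, against 12.2% and 12.1% of all genes. No call in any of the 4 contrasts was seen for 18 members, against 30.1% of all genes. Between the hairpins, shRNA3 against shRNA1, 11 members were higher and 23 lower, 47.2% of the members against 42.5% of all genes (22.0% of all genes higher and 20.5% lower). The count higher was 6 without shRNA1 replicate 2 and 5 without shRNA3 replicate 1, and the count lower was 13 without shRNA3 replicate 2. Of these 34 members 19 had opposite signs against WT with the 2 hairpins. The same share over all genes is not given here, and choosing members by a difference between hairpins itself favours opposite signs. Among the members 3 were called higher with shRNA1 and lower with shRNA3, against 1.07% of all genes: Ndufa1, Ndufb2 and Atp5j2. The opposite calls did not hold in every setting. With shRNA1 the call of Ndufa1 was lost with same-total scaling (limma adjusted p 0.0975) and quantile normalization (0.0676), that of Ndufb2 with same-total scaling (0.17) and that of Atp5j2 after quantile normalization (0.0523). Each of these shRNA1 calls was also lost without at least 1 library, and so were the shRNA3 calls of Ndufb2 and Atp5j2, while the lower call of Ndufa1 with shRNA3 was kept in each setting tried.

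**Figure D1:**
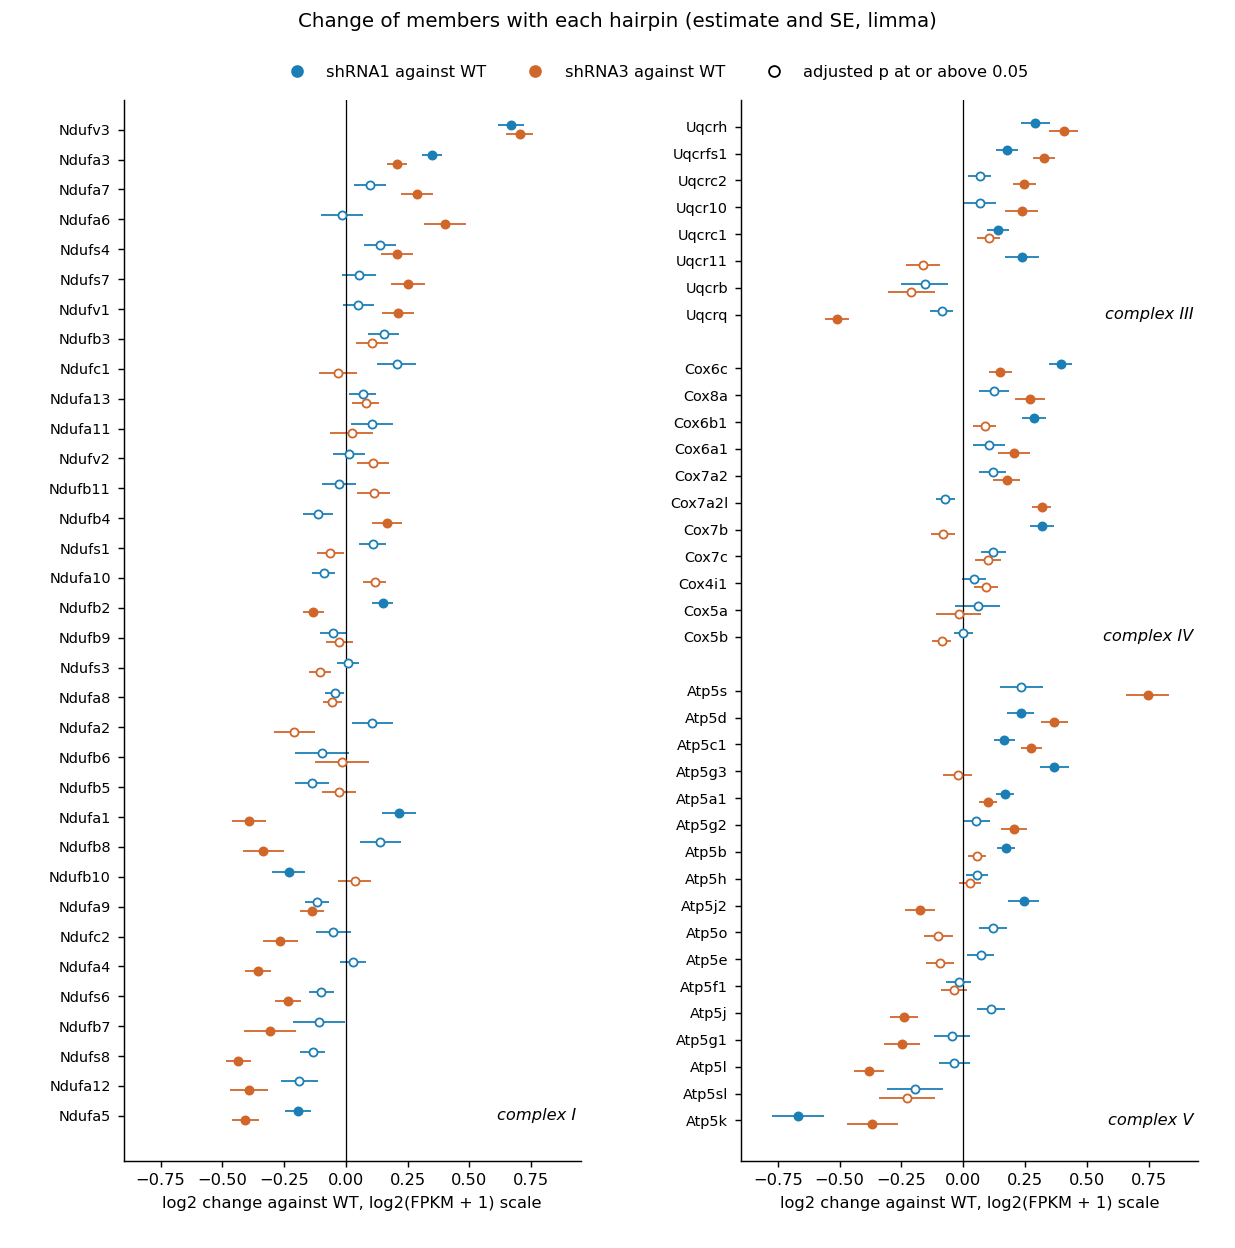
Log2 change against WT on the log2(FPKM + 1) scale of the members reported here with shRNA1 (blue) and shRNA3 (orange), with SE bars; filled points have a limma adjusted p under 0.05. Members run from the largest rise to the largest fall within a complex; Ndufs5, with changes of -3.38 and -2.06, lies outside the axis and is not drawn.

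The summed level was higher in all 4 knockdown libraries for complexes III and IV. For complexes I and V it was higher in both shRNA1 libraries than in WT cells, while the shRNA3 libraries lay on both sides of WT. Complex I summed to 3694 ± 54.3 FPKM in shRNA1 cells, 3577 ± 167 FPKM in shRNA3 cells and 3602 ± 14.9 FPKM in WT cells (mean ± SD, n = 2 libraries each, here and in the next sentences). Complex III summed to 1484 ± 16.7, 1476 ± 82.6 and 1353 ± 8.22 FPKM in shRNA1, shRNA3 and WT cells, and complex IV to 3445 ± 2.22, 3469 ± 155 and 3135 ± 69.1 FPKM. Complex V summed to 4147 ± 13.8, 3882 ± 129.7 and 3902 ± 5.71 FPKM in the same order of groups. Every knockdown library lay above both WT libraries for complexes III and IV, by 1.09 to 1.11 times in the group means. For complexes I and V the groups overlapped in summed FPKM when all 4 knockdown libraries are taken, but not in every case as a share of the library's FPKM sum, which was larger in the knockdown libraries. As such a share complex I made up 0.63% and 0.628% in shRNA1 cells and 0.612% and 0.592% in shRNA3 cells, against 0.644% and 0.632% in WT cells, so that all 4 knockdown libraries were below both WT libraries. Complex V made up 0.702% and 0.71% in shRNA1 cells and 0.658% and 0.648% in shRNA3 cells, against 0.695% and 0.688% in WT cells, with shRNA1 above and shRNA3 below WT. The shares of complexes III and IV stayed above WT in every knockdown library. For complex III the margin was close to nil, with 0.2426% in shRNA3 replicate 2 against 0.2423% in WT replicate 1. As a share of the library's FPKM sum, the members together made up 2.17% in shRNA1 cells, 2.09% in shRNA3 cells and 2.12% in WT cells.

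**Figure D2:**
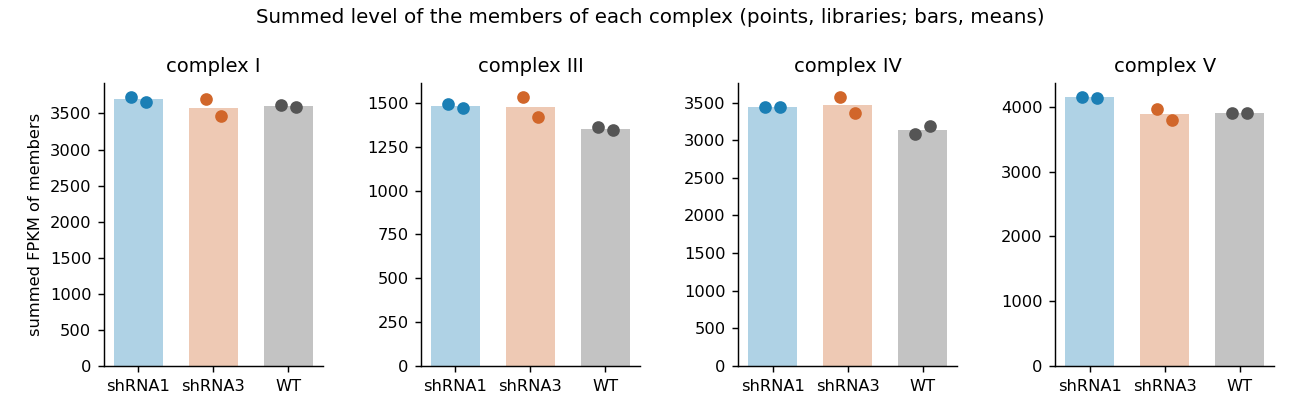
Summed FPKM of the members of each complex in each library (points) with the mean of the 2 libraries (bars). Complexes III and IV were higher in all 4 knockdown libraries, while the shRNA3 libraries lay around the WT level for complexes I and V.

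By complex, the calls with both hairpins against WT were 5 higher and 7 lower of 36 in complex I and 4 and 1 of 8 in complex III. They were 7 and 0 of 11 in complex IV, and 7 and 2 of 17 in complex V. Of all genes tested 24.1% were higher and 25.9% lower. Complexes follow the symbols, so Ndufa4, now assigned to complex IV, is counted in complex I. Likewise Atp5s and Atp5sl are counted in complex V by name, though the grouping of ATP synthase subunits by place below leaves them out. The median log2 changes were -0.02, 0.14, 0.12 and 0.03 in that order of complexes. Same-total scaling gave medians of -0.08, 0.07, 0.06 and -0.03, and quantile normalization -0.04, 0.09, 0.06 and -0.04, so that the sign of complex V flipped. After quantile normalization 2 members of complex IV were higher and 2 lower. With shRNA1 the median was 0.01 in complex I, 0.10 in complex III, 0.12 in complex IV and 0.11 in complex V; with shRNA3 it was -0.03, 0.17, 0.10 and -0.04. These counts and medians are descriptions, and no difference between complexes was tested.

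Members' levels differed far more between genes than between groups. The median member had 76.1 FPKM in complex I, 147.7 in complex III, 297 in complex IV and 241 in complex V, as a mean over the 6 libraries. Atp5b, the catalytic beta subunit of ATP synthase, was the highest at 628 FPKM, followed by Cox4i1 at 545 FPKM, the subunit common to most tissues of the complex IV pair Cox4i1 and Cox4i2. Uqcrh led complex III with 403 FPKM and Ndufb9, a membrane-arm subunit of complex I, led its complex with 437 FPKM. The lowest members were Ndufs5 at 4.55 FPKM, Atp5s at 5.49, Ndufa11 at 8.54 and Atp5sl at 14.2 FPKM, of which Ndufa11 and Atp5sl are named after their values were seen.

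Of the 8 symbols below the limit of 1 FPKM, 7 belong to complex IV and most are isoforms of muscle, testis or lung in other tissues: Cox4i2, Cox6a2, Cox6b2, Cox7a1, Cox7b2, Cox8b and Cox8c. Cox6b2, Cox7b2, Cox8b and Cox8c were listed at 0 in every library. Cox7a1, the heart and muscle form, lay just outside the limit, with 2.11 and 0.463 FPKM in shRNA1 cells, 1.52 and 0.898 FPKM in shRNA3 cells and 0.401 and 0.406 FPKM in WT cells. Cox4i2, a form known from lung and low oxygen, had 0 and 0.274, 0.452 and 0.266 and 0.238 and 0.602 FPKM in shRNA1, shRNA3 and WT cells. Ndufa4l2, the low-oxygen paralogue of Ndufa4, was at or under 0.091 FPKM in all. The lowest member inside the limit was Ndufs5, with the mean of 4.55 FPKM given above.

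In complex I, Ndufv3, a small subunit of the module that binds NADH, changed most among the members with steady values. It had 183 and 171 FPKM in shRNA1 cells and 187 and 175 FPKM in shRNA3 cells, against 108 and 114 FPKM in WT cells. All 4 knockdown libraries stood above both WT libraries, and the hairpins overlapped with each other. The log2 change was 0.69 ± 0.05 (SE) over both hairpins, with a limma adjusted p of 2.21e-05; the means were 1.59 and 1.63 times WT with shRNA1 and shRNA3, and the change was called under every scaling and with any library left out. Ndufa3, an accessory subunit of the membrane arm, had 189 and 199.9 FPKM in shRNA1 cells and 175 and 177 FPKM in shRNA3 cells, against 152 and 153 FPKM in WT cells. Again no knockdown library fell as low as WT, with shRNA1 cells the highest. It rose by 0.28 ± 0.04 on the log2 scale (limma adjusted p 0.000517). Ndufa7 and Ndufs4 were also called higher over both hairpins.

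Ndufs8, a core subunit that carries iron-sulfur clusters, was lower. It had 45.2 and 44.3 FPKM in shRNA1 cells and 37.1 and 35.2 FPKM in shRNA3 cells, against 50.5 and 47.97 FPKM in WT cells. The shRNA3 libraries were lowest and the shRNA1 libraries lay between them and WT, with no overlap. The log2 change was -0.28 ± 0.04 over both hairpins (limma adjusted p 0.00115), and it was called with shRNA3 (-0.44, adjusted p 0.000235) but not with shRNA1 (-0.13, adjusted p 0.0704). Ndufa5, an accessory subunit of the matrix arm, had 56.04 and 58.6 FPKM in shRNA1 and 49.99 and 48.7 FPKM in shRNA3 cells, against 68.6 and 63.1 FPKM in WT cells. It was one of the 2 members called lower with each hairpin, and fell by 0.30 ± 0.05 on the log2 scale (limma adjusted p 0.0012). Ndufa12, another subunit of the matrix arm, had 110.4 and 112 FPKM in shRNA1 cells and 105 and 88.6 FPKM in shRNA3 cells, against 131 and 123 FPKM in WT cells, and fell by 0.29 ± 0.07 (limma adjusted p 0.0077). All knockdown libraries were below WT for both of these genes. The further members of complex I called lower over both hairpins were Ndufa4, Ndufs6, Ndufa9 and Ndufs5. Ndufb9, the most abundant member of the complex, had a log2 change of -0.04 ± 0.05 (limma adjusted p 0.507).

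Other complex I members went apart between the hairpins. Ndufa1, an X-linked membrane-arm subunit, had 74.9 and 71.4 FPKM in shRNA1 cells and 49.4 and 46.03 FPKM in shRNA3 cells, against 67.2 and 58.9 FPKM in WT cells. WT lay between the hairpins, and the 3 groups did not overlap. The shRNA3 minus shRNA1 difference was -0.61 ± 0.07 on the log2 scale (limma adjusted p 0.000433), with -0.39 for shRNA3 (adjusted p 0.00188) and 0.21 for shRNA1 (adjusted p 0.0429) against WT. Ndufa6, a subunit that binds the mitochondrial acyl carrier protein, had 182 and 147 FPKM in shRNA3 cells and 119.7 and 125 FPKM in shRNA1 cells, beside 124 and 124 FPKM in WT cells. Both shRNA3 libraries were above all others, though they differed from each other. The difference between hairpins was 0.41 ± 0.09 (limma adjusted p 0.0061). Ndufa4, first assigned to complex I and now to complex IV, had 333 and 316 FPKM in shRNA3 cells, 418 and 430.3 FPKM in shRNA1 cells and 435 and 397 FPKM in WT cells. Only the shRNA3 libraries stood apart, with a log2 change against WT of -0.36 (limma adjusted p 0.000806), against 0.03 with shRNA1 (adjusted p 0.696) and a difference between hairpins of -0.39 ± 0.05 (adjusted p 0.00097).

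Ndufb2, Ndufb8, Ndufb10 and Ndufs7 are described after their values were seen, as members that also differed between the hairpins. Ndufb2, a membrane-arm subunit, had 36.1 and 35.4 FPKM in shRNA3 cells and 44.0 and 43.3 FPKM in shRNA1 cells, beside 39.3 and 39.2 FPKM in WT cells. Its groups did not overlap, with WT in the middle, and the shRNA3 minus shRNA1 difference was -0.28 ± 0.04 (limma adjusted p 0.00176). Ndufb8, of the same arm, had 108 and 92.1 FPKM in shRNA3 cells and 144.6 and 134 FPKM in shRNA1 cells, beside 119.7 and 133 FPKM in WT cells, with a difference of -0.47 ± 0.08 (limma adjusted p 0.00308). Ndufb10 went the other way, with 91.1 and 89.2 FPKM in shRNA3 cells and 80.8 and 69.2 FPKM in shRNA1 cells, beside 88.5 and 87.4 FPKM in WT cells. Here shRNA1 cells were lowest, and the difference was 0.27 ± 0.07 (limma adjusted p 0.015). Ndufs7, an iron-sulfur core subunit, had 81.5 and 72.4 FPKM in shRNA3 cells, 69.5 and 64.3 FPKM in shRNA1 cells and 62.5 and 66.3 FPKM in WT cells, and was called higher with shRNA3 (0.25, limma adjusted p 0.0138).

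In complex III, which hands electrons from ubiquinol to cytochrome c, Uqcrh rose most. This hinge protein for cytochrome c had 426 and 409 FPKM in shRNA1 cells and 479 and 426 FPKM in shRNA3 cells, against 336 and 345 FPKM in WT cells. No knockdown library reached down to WT, and the hairpins overlapped. The log2 change was 0.35 ± 0.05 over both hairpins (limma adjusted p 0.000889). Uqcrfs1, the Rieske iron-sulfur protein, had 79.5 and 76.1 FPKM in shRNA1 cells and 87.7 and 85.4 FPKM in shRNA3 cells, against 67.95 and 69.5 FPKM in WT cells, and rose by 0.25 ± 0.04 (limma adjusted p 0.00107). Uqcrc2, a core protein, had 75.8 and 75.1 FPKM in shRNA1 cells and 88.5 and 82.96 FPKM in shRNA3 cells, against 71.7 and 72.4 FPKM in WT cells, with a log2 change of 0.16 ± 0.04 (limma adjusted p 0.0119). For both genes the shRNA3 libraries were highest and WT lowest. Its partner core protein Uqcrc1 was also called higher over both hairpins.

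Uqcrq, a small subunit bound to the cytochrome b part of the complex, went the other way. It had 120.0 and 115 FPKM in shRNA1 cells and 84.8 and 90.1 FPKM in shRNA3 cells, against 127 and 123 FPKM in WT cells. The shRNA3 libraries were far below the other 4, and the shRNA1 libraries just under WT. The log2 change was -0.51 with shRNA3 (limma adjusted p 8.48e-05) and -0.09 with shRNA1 (adjusted p 0.188), with -0.30 ± 0.04 over both (adjusted p 0.000697). Uqcr11, another small subunit, described after its values were seen, had 182.6 and 163 FPKM in shRNA3 cells, 241 and 215 FPKM in shRNA1 cells and 191 and 196 FPKM in WT cells. WT lay between the hairpins, which differed by -0.40 ± 0.07 (limma adjusted p 0.00276).

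Complex IV, cytochrome c oxidase, had 7 of 11 members called higher over both hairpins by limma at this threshold, where 24.1% of all genes were. Called lower were 0, where 25.9% of all genes were, and an unadjusted p under 0.05 gave 8 higher and 0 lower. The count leaves out Ndufa4, which has a complex I symbol but is now assigned to complex IV. Ndufa4 was called lower over both hairpins (-0.16, limma adjusted p 0.0185). The 7 include Cox7a2l, described below as a factor that joins complexes. With same-total scaling the count was 3 higher and 1 lower, and after quantile normalization 2 and 2. Higher counts were 2 without WT replicate 1, 3 without WT replicate 2 and 4 without shRNA3 replicate 1. Cox6c, a small membrane subunit, led. It had 485 and 497 FPKM in shRNA1 cells and 431 and 398 FPKM in shRNA3 cells, against 373 and 374 FPKM in WT cells. The 3 groups did not overlap, with shRNA1 the highest. The log2 change was 0.27 ± 0.04 over both hairpins (limma adjusted p 0.00105). Cox6b1, a subunit on the intermembrane side, had 360.0 and 372 FPKM in shRNA1 cells and 329 and 308 FPKM in shRNA3 cells, against 307 and 293 FPKM in WT cells, and rose by 0.19 ± 0.04 (limma adjusted p 0.00629). Cox8a had 538 and 526 FPKM in shRNA1 cells and 605 and 573 FPKM in shRNA3 cells, against 459 and 519 FPKM in WT cells. The second WT library of Cox8a came close to the shRNA1 values, and the log2 change of 0.20 ± 0.05 (limma adjusted p 0.0152) was -0.01 after quantile normalization. Cox6a1, Cox7a2, Cox7a2l and Cox7b were the others called higher. Cox4i1 showed no call, with a log2 change of 0.07 ± 0.04 (limma adjusted p 0.214); after quantile normalization it was lower, at -0.15 (adjusted p 0.00547).

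Cox7a2l and Cox7b parted with the hairpin. Cox7a2l, a factor known for joining complexes III and IV into supercomplexes, had 352 and 344 FPKM in shRNA3 cells, 262 and 269 FPKM in shRNA1 cells and 276 and 282 FPKM in WT cells. The shRNA3 libraries were the highest and the shRNA1 libraries the lowest. The shRNA3 minus shRNA1 difference was 0.39 ± 0.04 (limma adjusted p 0.000217), and the change against WT was called with shRNA3 (0.32, adjusted p 0.000294) but not with shRNA1 (-0.07, adjusted p 0.173). Cox7b, a small subunit, had 64.7 and 61.8 FPKM in shRNA3 cells, 81.1 and 86.4 FPKM in shRNA1 cells and 67.9 and 65.9 FPKM in WT cells. Here shRNA1 stood above all the rest. The difference between hairpins was -0.40 ± 0.05 (limma adjusted p 0.000627).

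ATP synthase consists of the catalytic F1 head and the membrane part Fo that carries protons, joined by a central and a peripheral stalk. Grouped by place, again after the values were seen, 4 of the 5 head and central stalk subunits were higher over both hairpins and 0 lower by limma. The same counts held at an unadjusted p under 0.05, and Atp5e, the epsilon subunit, had no call. Of all genes tested 24.1% were higher and 25.9% lower over both hairpins. In the c ring 2 of 3 genes were higher and 0 lower (2 and 1 at an unadjusted p under 0.05). Of the 4 subunits of the peripheral stalk 0 were called in either direction by limma, nor at an unadjusted p under 0.05. Of the 3 small membrane subunits that the name rule selects 2 were lower and 0 higher (2 and 0 unadjusted). Usmg5 and 2010107E04Rik, subunits outside the name rule, were not called over both hairpins. Usmg5 had 279 and 325 FPKM in shRNA1, 246 and 213 in shRNA3 and 252 and 266 in WT cells. 2010107E04Rik had 336 and 338, 329 and 259, and 300 and 285 FPKM in that order. The head count rested on scaling: it was 2 higher with same-total scaling, where Atp5a1 and Atp5b lost their calls, and 3 higher and 1 lower after quantile normalization. Without WT replicate 1 it was 2. The c ring lost both higher calls with same-total scaling, where 1 gene was lower, and quantile normalization gave 1 and 1; leaving out any library left at most 1 gene higher. Among the head and stalk subunits, Atp5d, the delta subunit of the central stalk, had 277 and 258 FPKM in shRNA1 cells and 297 and 290.2 FPKM in shRNA3 cells, against 218 and 238 FPKM in WT cells. The groups did not overlap. It rose by 0.30 ± 0.05 on the log2 scale over both hairpins (limma adjusted p 0.00137). Atp5c1, the gamma subunit that turns inside the head, had 258 and 261 FPKM in shRNA1 cells and 286 and 274 FPKM in shRNA3 cells, against 236 and 226 FPKM in WT cells, with a change of 0.22 ± 0.04 (limma adjusted p 0.00173). Atp5b had 672 and 669 FPKM in shRNA1 cells and 619 and 617 FPKM in shRNA3 cells, against 592 and 597 FPKM in WT cells. All knockdown libraries were above WT for these genes too, and the Atp5b change of 0.11 ± 0.03 (limma adjusted p 0.0165) turned to -0.10 after quantile normalization. Atp5a1, the alpha subunit, was called higher (0.14, limma adjusted p 0.00921), but not with same-total scaling (0.07, adjusted p 0.135) or without WT replicate 1 (0.13, adjusted p 0.0637). Atp5s, a coupling factor related to factor B and no part of the catalytic core, was scarce but higher, at 4.75 and 5.14 FPKM in shRNA1 cells and 7.65 and 7.30 FPKM in shRNA3 cells, against 3.74 and 4.37 FPKM in WT cells; its change was 0.49 ± 0.08 (limma adjusted p 0.00121).

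Of the small membrane subunits, Atp5k and Atp5l fell over both hairpins. Atp5k, subunit e, which takes part in the pairing of ATP synthase into dimers, had 197 and 170.1 FPKM in shRNA1 cells and 235 and 217 FPKM in shRNA3 cells, against 325 and 262 FPKM in WT cells. Both WT libraries were above all 4 knockdown libraries but differed between themselves, and shRNA1 was lowest. The log2 change was -0.52 ± 0.09 (limma adjusted p 0.00229), and it was called with each hairpin. Atp5l, subunit g, the partner of subunit e, had 193 and 175 FPKM in shRNA3 cells, 224 and 244 FPKM in shRNA1 cells and 232 and 247 FPKM in WT cells. The shRNA3 libraries alone were apart, with a change against WT of -0.38 (limma adjusted p 0.00134) and one of -0.04 with shRNA1 (adjusted p 0.694). Atp5j2, subunit f, had 217 and 202 FPKM in shRNA3 cells, 294 and 267 FPKM in shRNA1 cells and 228 and 245 FPKM in WT cells. WT lay between the hairpins, which differed by -0.42 ± 0.06 (shRNA3 minus shRNA1, limma adjusted p 0.00137).

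Atp5j, a peripheral stalk subunit described after its values were seen, had 173 and 157 FPKM in shRNA3 cells, 204 and 219 FPKM in shRNA1 cells and 197 and 193 FPKM in WT cells. Its shRNA3 libraries were below the other 4, with a difference between hairpins of -0.35 ± 0.06 (limma adjusted p 0.00208).

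Subunit c, which forms the rotating ring of Fo, is encoded by 3 genes whose mature proteins are the same. Atp5g1 had 73.8 and 85.1 FPKM in shRNA1 cells, 71.8 and 65.9 FPKM in shRNA3 cells and 80.2 and 83.5 FPKM in WT cells. Atp5g2 had 373 and 377 FPKM in shRNA1 cells, 418 and 415 FPKM in shRNA3 cells and 342 and 382 FPKM in WT cells. Atp5g3 had 319.9 and 331 FPKM in shRNA1 cells, 264 and 233 FPKM in shRNA3 cells and 253 and 250.2 FPKM in WT cells. Each gene had a different pattern: Atp5g1 was lowest with shRNA3, Atp5g2 was highest with shRNA3, and Atp5g3 was highest with shRNA1. Against WT the shRNA3 change was -0.25 for Atp5g1 (limma adjusted p 0.0204) and 0.21 for Atp5g2 (adjusted p 0.0126), while the shRNA1 change was 0.37 for Atp5g3 (adjusted p 0.00229).

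**Figure D3:**
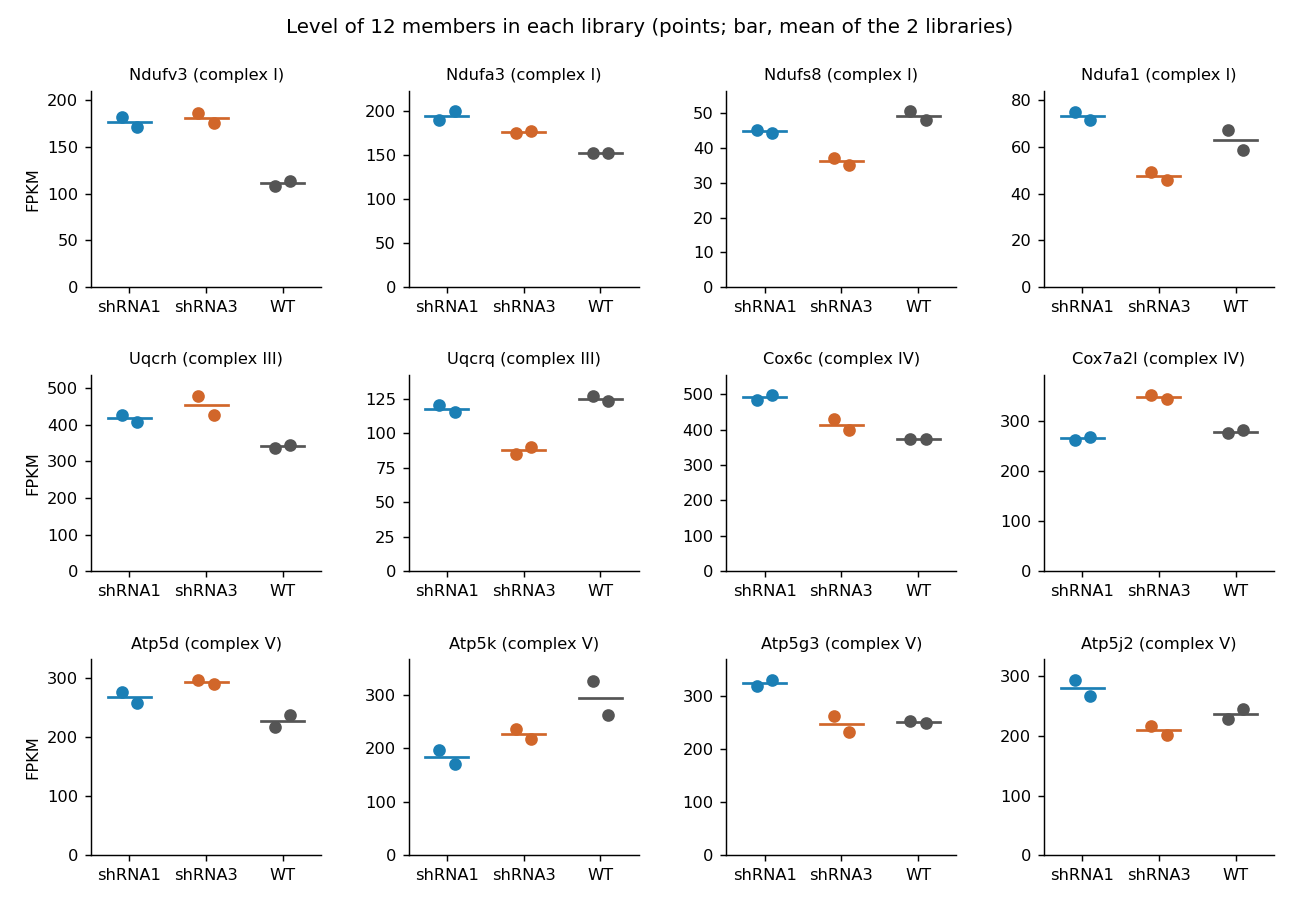
FPKM of 12 members in each library (points) with the mean of the 2 libraries (line), shRNA1 and shRNA3 left of WT. Ndufv3, Ndufa3, Uqcrh, Cox6c and Atp5d were higher in all 4 knockdown libraries, Ndufs8, Uqcrq and Atp5k lower, and Ndufa1, Cox7a2l, Atp5g3 and Atp5j2 differed between the hairpins.

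Ndufs5, a complex I subunit that faces the intermembrane space, had the largest fitted change and the least steady values. It was at 0.002 and 0.002 FPKM in shRNA1 cells, 0.001 and 5.21 FPKM in shRNA3 cells and 4.997 and 17.1 FPKM in WT cells. The knockdown libraries were near 0 but for the second shRNA3 library, which fell between the WT libraries, and the WT libraries were far apart. The fitted log2 change over both hairpins was -2.72 ± 0.67 (limma adjusted p 0.0111) and depends on the pseudocount. The gene lies at chr4:123712710-123718202 on the minus strand of GRCm38, the assembly also named mm10. Its coding part has a near-identical processed copy, BC002163, at chr16:42955631-42955949 on the plus strand, and the copy is listed in the files under its own name. Over 319 aligned bases 317 were the same, 99.4%, and the substitutions are T81C and A105G, with the base of Ndufs5 first and positions counted from 1 at the A of the start codon. The stretch from position 61 to 120, from GENCODE transcripts, shows how little there is to tell reads of the genes apart; capitals mark the differing bases.
Ndufs5: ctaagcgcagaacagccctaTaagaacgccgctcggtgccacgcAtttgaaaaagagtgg
BC002163: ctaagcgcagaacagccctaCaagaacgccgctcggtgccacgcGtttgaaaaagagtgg

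The copy was listed far above its parent gene. BC002163, named here after its values were seen, had 68.4 and 62.9 FPKM in shRNA1 cells, 70.4 and 61.1 FPKM in shRNA3 cells and 72.6 and 68.8 FPKM in WT cells. Its libraries overlapped between groups, and the log2 change over both hairpins was -0.11 ± 0.06 (limma adjusted p 0.196). Of the sum of both symbols, Ndufs5 held 7.86% in the second shRNA3 library and under 0.004% in the other 3 knockdown libraries, against 6.44% and 19.9% in WT cells. The sum was 65.6 ± 3.89 FPKM in shRNA1 cells, 68.4 ± 2.90 FPKM in shRNA3 cells and 81.7 ± 5.84 FPKM in WT cells (SD, n = 2 each). The fall of Ndufs5 is therefore uncertain, since the sources used here do not give how reads that fit both genes were counted.

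**Figure D4:**
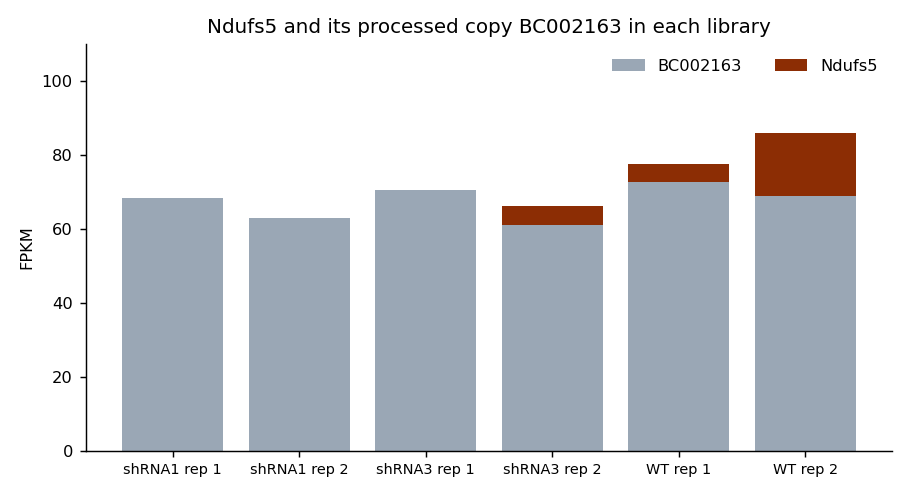
FPKM of BC002163 (grey) with that of Ndufs5 (brown) stacked on it, in each library. The copy lay between 61.1 and 72.6 FPKM in all 6, and Ndufs5 was visible in 1 shRNA3 and both WT libraries.

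Other members have copies as well. Of 71 members searched, 34 had at least 1 annotated copy of at least 90% identity over at least 80% of the coding part, 74 copies in all, and 6 had one over that share of the whole transcript. Atp5l had the most, with 14, followed by Atp5h and Cox7c with 5 each. Cox7c had 236 and 214 FPKM in shRNA1 cells, 224 and 218 FPKM in shRNA3 cells and 204 and 208 FPKM in WT cells, a change that was not called (limma adjusted p 0.0689). Over both hairpins 44.1% of the members with a copy were called, 9 higher and 6 lower, against 48.6% of the 37 without one, 14 higher and 4 lower. Of all genes tested 50.0% were called. Values of members with copies are uncertain to the extent that reads were split.

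The replicates of shRNA3 differed in a way that touched most members. The second shRNA3 library was lower than the first in 63 of 72 members, 87.5%, with a median ratio of 0.946, against 51.1% of all genes. The same count was 34 of 72 in shRNA1 and 35 of 72 in WT cells. Among the other genes tested, the ratio in shRNA3 was 0.930 for those with a longest transcript under 1000 bases, 0.970 from 1000 to under 2000 bases, 0.991 from 2000 to under 4000 bases and 1.02 for longer ones. Of the members 34 are in the shortest class and 23 in the next. Whether transcript length played a part, and what the lower second library adds to the members called lower with shRNA3, was not tested.

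**Figure D5:**
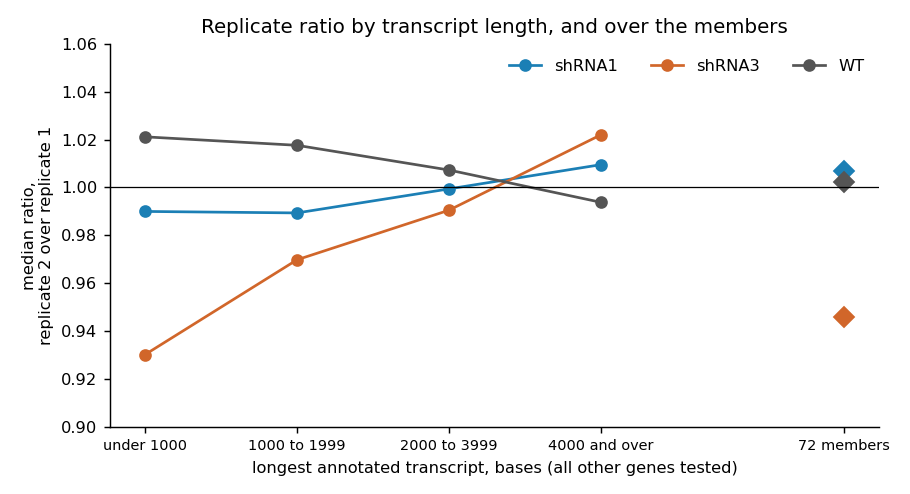
Median ratio of replicate 2 over replicate 1 in shRNA1, shRNA3 and WT cells, for all other genes tested by length of the longest annotated transcript (lines) and for the 72 members (diamonds). In shRNA3 the ratio was 0.930 for the shortest class and 0.946 for the members.

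Promoters of 59 members were matched in RefSeq (GRCm38.p6), as the 250 bases before to 50 after the start of transcription, to show what sequence stands in front of these genes. Nuclear respiratory factor 1 (NRF1), ETS-family factors such as GABPA, and YY1 are known to bind promoters of such genes. On either strand the NRF1 motif GCGCATGCG was in 8 of the 59, 13.6%, against 4.16% of promoters of the genes tested and 1.81% of all 27025. The ETS motif CCGGAAG was in 13, 22.0%, against 20.0% of the promoters of genes tested. The YY1 motif AAGATGGC was in 8, 13.6%, against 5.11%, and 7 of those 8 belong to complex I. At least 1 motif was in 25 members and none in 34, and 4 had both the NRF1 and the ETS motif: Atp5k, Atp5l, Cox6a1 and Uqcr11. Atp5k, which fell, and Ndufv3, which rose, are shown as the largest called fall and rise of members other than Ndufs5, with matches in capitals; that of Atp5k, at chr5:108434350-108434649 on the minus strand, holds an NRF1 match on both strands that overlap by all but 1 base and an ETS match, and that of Ndufv3, at chr17:31519865-31520164 on the plus strand, holds none.
Atp5k: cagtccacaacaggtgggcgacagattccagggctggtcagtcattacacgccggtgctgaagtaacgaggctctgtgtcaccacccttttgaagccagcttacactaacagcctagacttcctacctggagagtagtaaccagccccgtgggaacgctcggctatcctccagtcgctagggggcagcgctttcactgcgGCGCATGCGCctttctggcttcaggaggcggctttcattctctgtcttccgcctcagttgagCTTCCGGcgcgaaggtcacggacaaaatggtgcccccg
Ndufv3: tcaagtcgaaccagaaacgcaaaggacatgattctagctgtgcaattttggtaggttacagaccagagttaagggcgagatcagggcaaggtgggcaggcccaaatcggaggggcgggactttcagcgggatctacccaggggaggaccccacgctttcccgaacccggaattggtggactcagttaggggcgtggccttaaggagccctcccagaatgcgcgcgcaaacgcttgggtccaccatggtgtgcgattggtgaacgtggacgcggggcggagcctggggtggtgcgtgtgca

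Members with a given motif did not share a direction. Over both hairpins 3 were called higher and 2 lower of the 8 with the NRF1 motif, and 4 and 3 of the 13 with the ETS motif. The counts were 2 and 2 of the 8 with the YY1 motif, and 10 and 4 of the 34 with none. Of all genes tested 24.1% were called higher and 25.9% lower. A match describes the letters in this window and is not a bound site.

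Beyond the members, 82 further genes from fixed lists linked to mitochondria passed the filter. Of these 16 were higher and 24 lower over both hairpins, or 48.8% of them, against 50.0% of all genes (24.1% higher and 25.9% lower). Same-total scaling gave 14 and 38. In complex II, which feeds electrons from succinate, 2 of 4 were higher, Sdhd (0.24, limma adjusted p 0.00156) and Sdhc (0.19, adjusted p 0.0105), and 0 lower by limma, with 2 and 0 at an unadjusted p under 0.05. Cycs, the cytochrome c that carries electrons between complexes III and IV, had 13.2 and 11.7 FPKM in shRNA3 cells, 19.4 and 20.3 FPKM in shRNA1 cells and 21.1 and 20.7 FPKM in WT cells. Only shRNA3 cells were clearly lower, with a change against WT of -0.70 (limma adjusted p 8.48e-05) and of -0.07 with shRNA1 (adjusted p 0.417). Of the assembly factors, 1 of 13 for complex I was higher and 3 lower, 1 and 2 of 6 for complex III, 2 and 4 of 18 for complex IV, and 0 and 2 of 3 for complex V, where an unadjusted p under 0.05 also gave 0 and 2. Cox16, which helps build the copper site of complex IV, fell by 0.53 ± 0.06 on the log2 scale (limma adjusted p 0.000323). Sco1, a copper carrier to the same complex, fell by 0.53 ± 0.09 (limma adjusted p 0.00194). Uqcc3, an assembly factor of complex III, fell by 0.45 ± 0.07 (limma adjusted p 0.00105). Ndufaf4, an assembly factor of complex I, was scarce, at 0.883 and 1.25 FPKM in shRNA1 cells and 1.13 and 1.12 FPKM in shRNA3 cells, against 2.30 and 2.04 FPKM in WT cells, and fell by 0.60 ± 0.11 (limma adjusted p 0.00308). Nubpl, which puts iron-sulfur clusters into complex I, rose by 0.42 ± 0.07 (limma adjusted p 0.00245).

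Among 11 regulators of mitochondrial biogenesis 1 was higher and 5 lower over both hairpins, where 24.1% of all genes were higher and 25.9% lower. Pprc1, a coactivator of the PGC-1 family, had 9.34 and 8.82 FPKM in shRNA1 cells and 7.84 and 8.57 FPKM in shRNA3 cells, against 12.7 and 13.1 FPKM in WT cells, and fell by 0.53 ± 0.06 (limma adjusted p 0.000232). Tfb2m, a factor for transcription of mitochondrial DNA, fell by 0.30 ± 0.06 (limma adjusted p 0.00382). Ppargc1b, another PGC-1 coactivator, was higher with shRNA3 (0.59, limma adjusted p 0.00284) and at -0.04 with shRNA1 (adjusted p 0.792). Of 13 general mitochondrial proteins 2 were higher and 7 lower. Vdac1, a channel of the outer membrane, rose by 0.64 ± 0.03 (limma adjusted p 4.93e-06), while Letm1 and Timm23, an ion carrier and an import channel of the inner membrane, fell by 0.52 and 0.37 (adjusted p 0.000593 and 0.00282).

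In a list of 8 genes linked to low oxygen, most of them of mitochondria, 7 were higher over both hairpins, against 24.1% of all genes. The list holds Pdk1, Pdk3, Bnip3, Bnip3l, Higd1a, Lonp1, Mxi1 and Fundc1, and was chosen with earlier results of these data known. The median log2 change was 0.54, with 0 lower by limma, and at an unadjusted p under 0.05 all 8 were higher. Bnip3, a receptor for removal of mitochondria, had 246 and 254 FPKM in shRNA1 cells and 165 and 167 FPKM in shRNA3 cells, against 93.7 and 84.6 FPKM in WT cells. Higd1a, a small protein that binds complex IV, had 56.5 and 56.4 FPKM in shRNA1 cells and 28.95 and 27.7 FPKM in shRNA3 cells, against 18.8 and 18.4 FPKM in WT cells. Pdk1, the kinase that shuts pyruvate dehydrogenase, had 35.9 and 35.6 FPKM in shRNA1 cells and 26.4 and 26.3 FPKM in shRNA3 cells, against 17.8 and 17.8 FPKM in WT cells. In each the shRNA1 libraries were highest and WT lowest, with log2 changes over both hairpins of 1.19, 1.07 and 0.76 (limma adjusted p 1.54e-06, 1.52e-06 and 6.25e-06). Every one of these changes was larger than that of Ndufv3, the largest called rise among the members.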

How the data were processed

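Total RNA of 4T1 cells was isolated on columns and made into stranded mRNA libraries, per the labels' protocols. The authors deposited 1 table per library with symbols and values taken here to be FPKM: Cufflinks 2.2.1 stands in the submitters' processing notes, beside TopHat2 2.0.13, Bowtie2 2.2.3, SAMtools 0.1.19 and mm10, and values are not whole. The sources used here do not give the annotation, the strand setting or the handling of multiply mapping reads. Values are relative to the library, so abundant genes that rise lower the rest.

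Values were transformed to log2(FPKM + 1), and 11079 genes with a mean of at least 1 were fitted with limma 3.58.1 (R 4.3.3; 6 libraries, 3 group means, trend, 3 residual and 4.96 prior degrees of freedom); all tests were two-sided. Tables were handled with Python 3.11.15, pandas 2.3.3 and matplotlib 3.10.9. The fit was tested on simulated data. Copies were sought among GENCODE M21 transcripts, not by mapping to a genome as planned, and the search over coding parts was added after the whole-transcript search had missed BC002163. Members and lists were chosen with earlier results of these data known. Named members are, per complex, the 3 largest called rises and falls without overlap, the largest differences between hairpins, the most abundant, isoforms and copies; per other list, up to 3 called genes. Others appear only in lists of calls or as said, and 1 member that this rule selects is not reported here.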

Additional observations from a re-analysis of the deposited data

Results flagged for a closer look

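The change against WT differed between the hairpins in 34 of the 72 members, by limma's test of shRNA3 minus shRNA1 (Benjamini-Hochberg adjusted p under 0.05 over all genes; 42.5% of all genes tested passed it). The 26 whose values are given here are those among them that the naming rule selects and 7 chosen after their values were seen (Ndufb2, Ndufb8, Ndufb10, Ndufs7, Ndufa7, Uqcr11 and Atp5j). All values are log2 differences, shRNA3 minus shRNA1, and a positive one means higher in shRNA3 cells.

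Of these 26, the members higher in shRNA3 cells were Atp5s (0.51), Ndufa6 (0.415), Cox7a2l (0.39), Atp5k (0.30), Uqcrc2 (0.18), Uqcrfs1 (0.15), Ndufb10 (0.27), Ndufs7 (0.20) and Ndufa7 (0.19). Those lower in shRNA3 cells in complexes I and III were Ndufa1 (-0.61), Uqcrq (-0.42), Ndufa4 (-0.39), Ndufs8 (-0.30), Ndufa5 (-0.21), Ndufa3 (-0.14), Ndufb2 (-0.28), Ndufb8 (-0.47) and Uqcr11 (-0.40). In complexes IV and V the lower ones were Atp5j2 (-0.42), Cox7b (-0.40), Atp5g3 (-0.39), Atp5l (-0.35), Cox6c (-0.24), Cox6b1 (-0.20), Atp5b (-0.12) and Atp5j (-0.35). Of them Ndufa1, Ndufb2 and Atp5j2 were called in opposite directions against WT with the 2 hairpins, though each shRNA1 call was lost under another scaling and without at least 1 library. Leaving out any library kept the calls of Atp5s, Ndufa6, Cox7a2l, Ndufa1, Uqcrq, Ndufa4, Ndufs8, Atp5j2, Cox7b, Atp5g3, Atp5l, Cox6c, Ndufb2, Ndufb8, Uqcr11 and Atp5j. The other 10 lost the call without at least 1 library.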

How the results depend on the processing

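The labels do not say what a replicate number shares, and 2 libraries a group cannot settle whether the numbers pair the libraries. Deviations from the group means correlated across genes by 0.01 between shRNA1 and WT, -0.07 between shRNA3 and WT and 0.20 between shRNA3 and shRNA1. With the replicate block the members called higher and lower were 18 and 9 over both hairpins, 16 and 4 with shRNA1, 21 and 15 with shRNA3, and 9 and 21 between the hairpins. Same-total scaling gave 11 higher and 21 lower over both hairpins, 9 lower with shRNA1 and 27 lower with shRNA3, and quantile normalization gave 14 and 16, 8 lower and 26 lower. Without the filter 14 were higher over both hairpins and 2 lower with shRNA1. Without the trend 13 were higher over both hairpins, 2 lower with shRNA1 and 7 higher between the hairpins. With the 4 knockdown libraries as 1 group 4 were higher, among them Ndufv3, Ndufa3 and Uqcrh, and 0 lower. The shares of all genes called in these other settings are not given here. Leaving out 1 library each gave 11 to 24 higher and 8 to 12 lower over both hairpins, 10 to 17 higher and 2 to 4 lower with shRNA1, 13 to 23 higher and 9 to 19 lower with shRNA3, and 5 to 13 higher and 13 to 22 lower between the hairpins. The cause of these shifts was not tested. Median-of-ratios scaling, other pseudocounts and a higher filter kept these counts within 1.5 times.

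Signs over both hairpins turned in Ndufa1 (0.00424 without WT replicate 1, and -0.18 without WT replicate 2, where it passed at a limma adjusted p of 0.0493) and Ndufb9 (0.0103 and -0.0884), and after quantile normalization in Cox8a (-0.00913), Cox4i1 (-0.15, limma adjusted p 0.00547) and Atp5b (-0.10, and -0.0455 with shRNA1); of the turned values Cox4i1 alone passed the test. Atp5j2 was -0.0308 with same-total scaling, -0.0169 after quantile normalization, -0.0189 without WT replicate 1 and 0.0884 without WT replicate 2. Depth is unknown, 2 libraries a group limit all tests, and members with copies may share reads.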
